A study of Homo sapiens with 12 samples.

Results

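Human mitochondria carry their own small genome, and the proteins that transcribe it and handle its RNA are encoded in the nucleus. Of these nuclear genes, 10 were chosen by name for the step at which their products act. They belong to 29657 genes listed in SCC15 and 31055 in SCC25. POLRMT, TFAM, TFB2M and TEFM transcribe the mitochondrial genome. LRPPRC and SLIRP bind its messenger RNAs, PNPT1 and SUPV3L1 degrade its RNA, and ELAC2 and FASTKD2 act in RNA processing. All 10 were tested in both cell lines, with at least 47 reads in every library.

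RNA was sequenced from SCC15 and SCC25, established human oral squamous cell carcinoma lines labelled as oral squamous cells of WT genotype. Each line was kept for 24 h with ACGs or with the solvent DMSO, and each of the 4 groups has 3 libraries. ACGs, annonaceous acetogenins, are lipid-derived plant products, and per the study's methods the one used was squamocin, at 10 µg/mL. Each line stands for a single tumour, and since nothing states that the 3 libraries of a group came from separate cultures, the p-values measure only the spread between these libraries.

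Mitochondrial transcription starts when TFAM bends the promoter DNA and TFB2M helps the single-subunit polymerase POLRMT to open it. TEFM then keeps the polymerase moving. The transcripts are long and polycistronic: tRNAs lying between the genes are cut out, with ELAC2 cleaving at their 3′ ends, and this releases the messenger and ribosomal RNAs. LRPPRC and SLIRP form a complex that stabilises the messengers and promotes their polyadenylation, while the exoribonuclease PNPT1 and the helicase SUPV3L1 form the degradosome of the matrix. Acetogenins are known as inhibitors of respiratory complex I, many of whose core subunits are encoded by the mitochondrial genome.

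Promoters of nuclear genes for mitochondrial proteins often hold binding letters for the factors NRF1 and GABP, so these letters were looked up in the members' promoters. The stretches below reach from 100 bases before to 20 bases after the RefSeq start site of the 4 transcription genes (GRCh38.p14, printed along the gene's own strand). They are shown because the values of these 4 genes moved in unlike ways. Capitals mark the NRF1 letters GCGCANGCG or the ETS letters CCGGAAG used by GABP, on either strand.
POLRMT (chr19:633518-633637, - strand): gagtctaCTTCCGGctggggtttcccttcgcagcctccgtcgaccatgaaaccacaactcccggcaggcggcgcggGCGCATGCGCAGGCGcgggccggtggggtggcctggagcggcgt
TFAM (chr10:58385310-58385429, + strand): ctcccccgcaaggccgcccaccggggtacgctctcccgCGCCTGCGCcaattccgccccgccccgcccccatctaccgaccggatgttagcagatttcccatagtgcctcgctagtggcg
TFB2M (chr1:246566242-246566361, - strand): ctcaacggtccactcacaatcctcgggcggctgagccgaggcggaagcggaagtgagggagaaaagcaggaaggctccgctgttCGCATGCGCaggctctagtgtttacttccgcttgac
TEFM (chr17:30906219-30906338, - strand): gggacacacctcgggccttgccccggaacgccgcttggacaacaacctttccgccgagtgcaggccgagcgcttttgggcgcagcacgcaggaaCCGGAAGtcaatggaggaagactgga

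The NRF1 letters stood in the promoters of POLRMT, TFAM and TFB2M, 3 of the 10 members, against 7.44% of all 34943 promoter windows of 300 bases in the table. In POLRMT they began 24, 23 and 18 bases before the start site, 3 copies that overlap one another. In TFAM the letters began at base -62 and in TFB2M at base -16. The ETS letters stood in 4 members, ELAC2, POLRMT, SLIRP and TEFM, against 10.2% of all windows. Of the other letters searched on both strands, the Sp1 letters GGGCGG were in 5 members (44.9% of windows), the letters CCAAT in 6 (34.6%), and the YY1 letters AANATGGC in SLIRP alone (6.57%). The E-box CACGTG (7.23%) and the stress-response letters TGATGCAA (0.870%) were in none. Members' windows held 49.3% to 68.0% G and C, with a median of 63.7% against 58.7% over all windows. A match of letters describes the sequence and shows no binding.

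Each library held between 16665563 and 22748845 reads on genes. Values are normalized counts, meaning reads divided by the study's size factor for that library. With those factors the median gene changed by 0.01 in SCC15 and by -0.01 in SCC25 on the log2 scale. When libraries were instead scaled to equal totals the median became -0.48 and -0.22, so values at equal totals are given beside those of the study's factors. In SCC15 squamocin replicate 3 stood apart, with a chi-square per degree of freedom of 63.5 to 71.6 against its group mates, compared with 1.72 to 11.02 in the other 10 of 12 replicate pairs. SCC25 held the squamous markers KRT5 (4362 to 5684), TP63 (4466 to 7030) and DSG3 (573 to 667). SCC15 held KRT14 (752 to 1912), SFN (2375 to 6292), CDH1 (428 to 568) and KRT6A (112 to 139). In SCC25 CDH1 read 3587 to 5333 and KRT6A 83.7 to 231. In SCC15 KRT5 reached only 13.1, TP63 22.7 and DSG3 2.56, so these defining markers of the labelled cell type are nearly absent there, while the other squamous markers listed are present. SCC15 also held COL3A1 (248 to 474) and DCN (68.4 to 141), genes typical of fibroblasts, which in SCC25 stayed at or below 7.28 and 0.900. Of the other fibroblast markers, COL1A1 went the other way, at 97.1 to 158 in SCC15 and 554 to 1040 in SCC25. So did PDGFRB, at most 5.97 in SCC15 and 164 to 196 in SCC25. COL1A2 was low in both lines, reaching 4.56 and 18.7. In bulk RNA, fewer cells of a type and less RNA per cell cannot be told apart.

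Marker sums of other cell types moved with squamocin, except that the immune sum in SCC15 overlapped between the groups with the study's factors. The immune sum was 319 to 501 under squamocin and 498 to 540 in DMSO in SCC15, and 19.1 to 31.1 against 331 to 420 in SCC25. Scaled to 1000000 normalized counts, the immune groups of SCC15 were apart (15.6 to 20.4 against 32.1 to 34.9). CD14 carried most of this sum in DMSO, while PTPRC reached at most 3.95 in SCC15 and LYZ at most 1.77 in SCC25. The endothelial sum was 66.1 to 77.1 against 158 to 178 in SCC15, and 19.8 to 36.6 against 231 to 294 in SCC25. Fibroblast markers summed to 471 to 482 against 694 to 772 in SCC15, and to 1065 to 1213 against 761 to 805 in SCC25. The endothelial and fibroblast sums stayed apart in both lines when scaled in the same way. The squamous sum was 5205 to 8755 against 3798 to 3947 in SCC15, where the groups overlapped once scaled to 1000000 normalized counts (254 to 355 against 244 to 254). In SCC25 it was 31537 to 32646 against 21554 to 21666, and stayed apart when so scaled (1489 to 1561 against 1181 to 1184). SFN made up most of the rise in both lines. It averaged 4443 under squamocin and 2424 in DMSO in SCC15, and 15062 against 5157 in SCC25. Of the squamous markers tested in SCC15, 2 of 5 rose and 0 fell, but 1 rose and 3 fell at equal totals. In SCC25 4 of 7 rose under either scaling, and 2 fell (KRT5 by -0.25 and CDH1 by -0.46), or 3 at equal totals. Fibroblast markers counted 2 of 3 lower in SCC15 (3 at equal totals) and 1 of 3 higher in SCC25 (with 1 lower at equal totals). Immune markers counted 0 of 2 lower in SCC15 (1 at equal totals) and 1 of 2 in SCC25, and endothelial markers 1 of 1 and 3 of 3. Beside these few markers, 30.9% of all genes rose and 30.0% fell in SCC15, and 38.3% and 38.5% in SCC25. At equal totals the shares were 14.8% and 50.5%, and 30.4% and 47.4%. The part of these markers in the values of the members was not tested.

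With the study's factors, members were called in both directions in each line. In SCC15, 4 rose (POLRMT, LRPPRC, SLIRP and SUPV3L1) and 3 fell (TFAM, TEFM and ELAC2) by limma with adjusted p under 0.05, whereas at equal library totals 0 rose and 7 fell. Of all 15902 genes tested in SCC15, 30.9% rose and 30.0% fell with the study's factors, 61.0% in all, and at equal totals 14.8% rose and 50.5% fell. In SCC25, 3 rose (TFAM, SLIRP and SUPV3L1) and 6 fell (POLRMT, TFB2M, TEFM, LRPPRC, PNPT1 and ELAC2), and 2 rose and 7 fell at equal totals. There the background over 16539 genes was 38.3% higher and 38.5% lower, 76.8% in all, and at equal totals 30.4% and 47.4%. The median change of the members was -0.02 in SCC15 and -0.18 in SCC25, beside 0.01 and -0.01 over all genes. With the study's factors, the squamocin and DMSO libraries of 8 members in SCC15 and 9 in SCC25 did not overlap, as for 70.6% and 79.0% of all genes. An exact permutation test of 3 libraries against 3 can give no p below 0.1 and gave 0.1 for each of these.

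POLRMT (ENSG00000099821, chromosome 19, 617224 to 633604), the mitochondrial RNA polymerase, rose in SCC15 and fell in SCC25. In SCC15 it read 1666, 1778 and 1844 under squamocin and 1294, 1127 and 1151 in DMSO, with no overlap. This was 1.48-fold higher, a log2 change of 0.57 ± 0.09 (SE, n = 3 per group, limma adjusted p = 0.00144), which at equal totals came to 0.07 (adjusted p = 0.539). In SCC25 the squamocin libraries read 1323, 1071 and 1373 and the DMSO libraries 1411, 1492 and 1424, so the groups came close without overlapping. Its log2 change there was -0.21 ± 0.08 (limma adjusted p = 0.0311), and -0.42 (limma adjusted p = 5.46e-04) at equal totals. With the study's factors the call held without squamocin replicate 1 (-0.25, adjusted p = 0.0294) or 3 (-0.28, adjusted p = 0.00115). The call was lost without squamocin replicate 2, when the change was -0.10 (adjusted p = 0.116). It was lost too without any single DMSO library (-0.22, -0.18 and -0.22, adjusted p = 0.0556, 0.108 and 0.0618). Its processed pseudogene POLRMTP1 reached at most 29.9 in any library. Measured against the median gene, POLRMT stood 0.55 higher in SCC15 and 0.19 to 0.20 lower in SCC25. Rescaling libraries shifts all genes nearly alike, so these values match under either scaling by construction and do not test the change.

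TFAM (ENSG00000108064, chromosome 10, 58385022 to 58399221), which packages mitochondrial DNA as well as starting its transcription, went the other way. SCC15 libraries gave 540, 545 and 594 under squamocin against 925, 974 and 965 in DMSO, a wide gap between the groups. It was 1.71-fold lower, with a log2 change of -0.77 ± 0.08 (limma adjusted p = 2.68e-04) that widened to -1.27 at equal totals. In SCC25 the squamocin libraries read 1913, 2075 and 1712 and the DMSO libraries 1619, 1601 and 1637. All 3 squamocin libraries were thus higher, with more spread among them (SD 182 against 17.8). The log2 change of 0.23 ± 0.06 passed the test (limma adjusted p = 0.00567) with the study's factors, but at equal totals it was 0.02 (adjusted p = 0.790). Per length and scaled to 1000000 reads, the SCC25 groups overlapped, at 18.0, 19.4 and 16.3 under squamocin and 17.6, 17.4 and 17.9 in DMSO.

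TFB2M (ENSG00000162851, chromosome 1, 246540560 to 246566324), the initiation factor that partners the polymerase, was called in SCC25 alone with the study's factors, and the difference between the lines did not pass its own test. It read 398, 308 and 328 against 443, 437 and 468 in SCC25, a log2 change of -0.39 ± 0.10 (limma adjusted p = 0.00234). The 6 SCC15 libraries overlapped, at 262, 235 and 295 under squamocin and 305, 312 and 278 in DMSO. Their log2 change was -0.18 ± 0.12 (limma adjusted p = 0.225). It came to -0.26 (adjusted p = 0.0187) without squamocin replicate 3 and to -0.68 (adjusted p = 0.00111) at equal totals.

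TEFM (ENSG00000172171, chromosome 17, 30897336 to 30906820), the elongation factor, fell in both lines and was the lowest of the 10 in read number. In SCC15 it read 54.5, 82.1 and 90.8 under squamocin against 155, 153 and 146 in DMSO. In SCC25 the values were 97.9, 106 and 81.0 against 163, 161 and 152. The groups were well apart in both lines, with log2 changes of -1.02 ± 0.20 in SCC15 (limma adjusted p = 0.00375) and -0.74 ± 0.13 in SCC25 (limma adjusted p = 2.39e-04). Equal totals widened them to -1.51 and -0.95. TEFM shares 477 bases with ADAP2 on the other strand, and whether reads were counted by strand is not given in the sources used here. ADAP2 averaged 2.37 and 11.9 in squamocin and DMSO in SCC15, and 7.30 and 25.4 in SCC25, all well under the TEFM values.

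**Figure D1:**
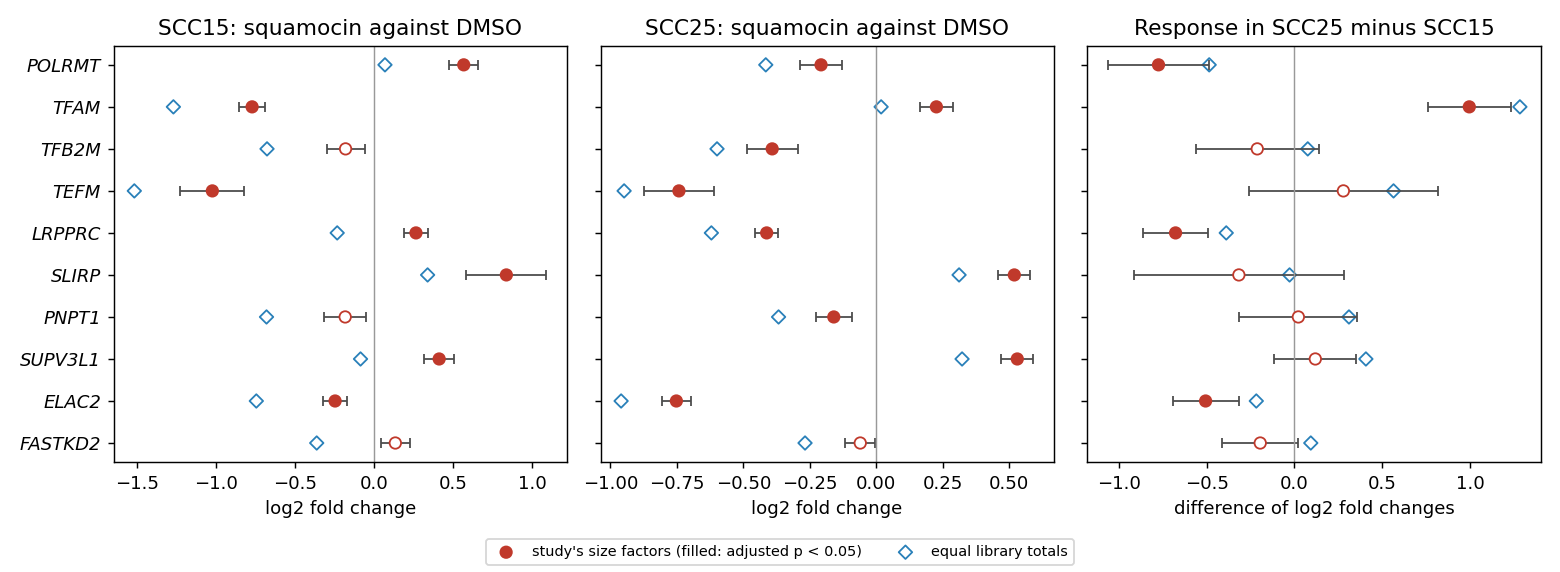
Log2 fold change of squamocin against DMSO for each factor in SCC15 (left) and SCC25 (middle), with SE bars, and the difference of the 2 changes (right) with its 95% interval. Circles use the study's size factors and are filled where the adjusted p is under 0.05, and diamonds use equal library totals, which move every change lower, turn LRPPRC, SUPV3L1 and FASTKD2 negative in SCC15, and turn the differences of TFB2M and FASTKD2 positive.

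LRPPRC (ENSG00000138095, chromosome 2, 43886508 to 43996005), the scaffold of the messenger-stabilising complex, was higher in SCC15 with the study's factors and lower in SCC25. SCC15 values were 2313, 2336 and 2511 under squamocin and 1949, 1997 and 2008 in DMSO. The log2 change of 0.26 ± 0.08 (limma adjusted p = 0.0205) turned to -0.23 (adjusted p = 0.0334) at equal totals. The SCC15 call was also lost when any single DMSO library was left out (adjusted p = 0.0895, 0.0754 and 0.0777). In SCC25 the fall was clear, from 4632, 4751 and 4536 in DMSO to 3425, 3631 and 3404 under squamocin. That log2 change was -0.41 ± 0.04 (limma adjusted p = 1.53e-06), or -0.62 at equal totals.

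SLIRP (ENSG00000119705, chromosome 14, 77708071 to 77761104), the small RNA-binding partner of LRPPRC, rose in both lines. In SCC15 it read 1237, 1293 and 2508 under squamocin against 872, 896 and 902 in DMSO, so replicate 3 set the spread (SD 719 against 15.8). The log2 change of 0.84 ± 0.25 (limma adjusted p = 0.0225) became 0.51 (adjusted p = 6.50e-08) without that library. It became 0.34 (adjusted p = 0.164) at equal totals. Leaving out any single DMSO library also lost the SCC15 call, with adjusted p = 0.0680, 0.0635 and 0.0616. In SCC25 the libraries were close together, at 972, 909 and 898 against 663, 616 and 659, a log2 change of 0.52 ± 0.06 (limma adjusted p = 5.05e-06) that stayed called at 0.31 with equal totals. The span that the files give SLIRP shares 43506 bases with SNW1 on the other strand, and SNW1 itself rose by 0.48 in SCC15 and 0.21 in SCC25 (limma adjusted p = 0.0117 and 0.00238) with the study's factors. At equal totals its changes were -0.02 and 0.00020 (limma adjusted p = 0.827 and 0.997). Reads of the pair can be told apart only where counting used strand.

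LRPPRC and SLIRP act as 1 complex, yet in SCC25 their log2 changes had opposite signs, -0.41 and 0.52, under both scalings (-0.62 and 0.31). In SCC15 both were higher with the study's factors (0.26 and 0.84), and they had opposite signs at equal totals (-0.23 and 0.34).

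PNPT1 (ENSG00000138035, chromosome 2, 55634265 to 55693910), the exoribonuclease of the degradosome, changed little with the study's factors and was called lower in both lines at equal totals. Its SCC15 libraries gave 440, 466 and 596 under squamocin and 545, 614 and 535 in DMSO, overlapping, with a log2 change of -0.18 ± 0.13 (limma adjusted p = 0.268). Without squamocin replicate 3 the change was -0.31 (adjusted p = 0.00100), and at equal totals -0.68 (adjusted p = 8.29e-04). In SCC25 it read 669, 725 and 673 against 810, 789 and 712, again with overlap. The log2 change of -0.16 ± 0.07 passed narrowly (limma adjusted p = 0.0449). It did not pass with DESeq2 (adjusted p = 0.0795) or without squamocin replicate 1 (0.122) or 3 (0.0528) or DMSO replicate 1 (0.183) or 2 (0.141). At equal totals the SCC25 change was -0.37 (limma adjusted p = 2.27e-04).

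SUPV3L1 (ENSG00000156502, chromosome 10, 69180232 to 69209099), the helicase that works with PNPT1, rose in both lines with the study's factors. In SCC25 it went from 530, 532 and 528 in DMSO to 746, 799 and 755 under squamocin, 1.45-fold higher. The log2 change was 0.53 ± 0.06 (limma adjusted p = 3.66e-06), or 0.32 (adjusted p = 2.60e-04) at equal totals. In SCC15 it read 502, 490 and 565 against 377, 402 and 389, without overlap. That change of 0.41 ± 0.10 (limma adjusted p = 0.00768) turned to -0.09 (adjusted p = 0.408) at equal totals. Relative to the median gene it stood 0.40 higher in SCC15 and 0.54 to 0.55 higher in SCC25, values that rescaling can hardly change.

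ELAC2 (ENSG00000006744, chromosome 17, 12992391 to 13018187), the tRNA 3′ endonuclease, fell in both lines and by more in SCC25. There it dropped from 1460, 1426 and 1399 in DMSO to 816, 838 and 889 under squamocin, 1.68-fold lower. The log2 change of -0.75 ± 0.05 had the smallest adjusted p among the members (limma adjusted p = 4.61e-08). The SCC15 libraries gave 1515, 1554 and 1476 against 1750, 1818 and 1822, also without overlap. That change was -0.25 ± 0.08 (limma adjusted p = 0.0238), and without any single DMSO library it was no longer called (adjusted p = 0.0694, 0.0966 and 0.105). At equal totals both changes widened, to -0.74 and -0.96.

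FASTKD2 (ENSG00000118246, chromosome 2, 206765357 to 206792509), a granule protein needed for ribosomal RNA and ribosome assembly, was the only member called in neither line with the study's factors. It read 420, 416 and 440 under squamocin against 364, 402 and 396 in SCC15, and 649, 670 and 664 against 688, 684 and 696 in SCC25. The groups were separate in each line but lay close together. Log2 changes were 0.13 ± 0.09 (limma adjusted p = 0.234) and -0.06 ± 0.06 (limma adjusted p = 0.345). At equal totals they were -0.36 (adjusted p = 0.0152) and -0.27 (adjusted p = 7.97e-04).

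Whether the response depended on the line was tested as the difference of the 2 log2 changes, SCC25 minus SCC15. It passed for 4 of the 10 members, where 52.2% of the 14454 genes tested in both lines passed. TFAM differed by 1.00 (95% interval 0.76 to 1.23, limma adjusted p = 9.74e-06) and POLRMT by -0.77 (-1.06 to -0.49, adjusted p = 3.45e-04). LRPPRC differed by -0.68 (-0.86 to -0.49, limma adjusted p = 3.44e-05). These 3 kept their sign and their call at equal totals, at 1.29, -0.49 and -0.39. ELAC2 differed by -0.51 (-0.69 to -0.32, limma adjusted p = 3.36e-04) but not at equal totals (-0.22, adjusted p = 0.142).

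The other 6 differences did not pass with the study's factors, and their intervals leave room for unequal responses. For SLIRP the interval ran from -0.92 to 0.28, for TEFM from -0.26 to 0.82 and for TFB2M from -0.56 to 0.14. PNPT1 lay between -0.31 and 0.36, SUPV3L1 between -0.11 and 0.35, and FASTKD2 between -0.41 and 0.02. At equal totals TEFM (0.56), SUPV3L1 (0.41) and PNPT1 (0.31) passed. Of the members, 2 were called higher in both lines, 2 lower in both and 3 in opposite directions, beside 22.1%, 18.6% and 10.1% of the genes tested in both. At equal totals 0 were higher in both, 6 lower in both and 0 opposite, beside 10.7%, 32.2% and 10.9%.

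A further 49 nuclear genes for mitochondrial transcription, nucleoid upkeep and RNA maturation were tested in both lines. In SCC15, 9 rose and 20 fell (median -0.08 against 0.01 over all genes), and at equal totals 0 rose and 31 fell. Over all genes the shares were 30.9% and 30.0%, and 14.8% and 50.5% at equal totals. In SCC25, 12 rose and 28 fell (median -0.38 against -0.01), and at equal totals 8 rose and 36 fell, beside 38.3% and 38.5%, and 30.4% and 47.4%, of all genes. Across both lines 5 were higher in each, 15 lower in each and 4 opposite (22.1%, 18.6% and 10.1% of all genes). At equal totals these counts were 0, 27 and 2 (10.7%, 32.2% and 10.9%). The contrast between the lines passed for 22, and for 52.2% of all genes.

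The 10 genes of transcription and the nucleoid counted 1 rise and 6 falls in SCC15, and in SCC25 3 rises and 5 falls (0 and 7, and 1 and 7, at equal totals). Shares over all genes, for this and the groups that follow, were 30.9% higher and 30.0% lower in SCC15, and 38.3% and 38.5% in SCC25. At equal totals they were 14.8% and 50.5%, and 30.4% and 47.4%. TWNK, the helicase of mitochondrial DNA replication, had the deepest fall of the list in SCC15, at -2.20 ± 0.22 (limma adjusted p = 1.82e-04), and fell by 2.25 in SCC25. Among 4 tRNA-processing genes, 3 fell and 0 rose in each line, or 4 in SCC25 at equal totals. TRMT10C, a subunit of the mitochondrial RNase P that cuts the 5′ ends of tRNAs, averaged 128 ± 40.3 (SD, n = 3) under squamocin and 423 ± 14.4 in DMSO in SCC15. In SCC25 it averaged 231 ± 33.6 and 845 ± 28.1. Its log2 changes were -1.76 ± 0.20 and -1.87 ± 0.10 (limma adjusted p = 3.47e-04 and 2.14e-09).

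The 10 genes of RNA stability, polyadenylation and decay counted 4 higher and 3 lower in each line with the study's factors, but 0 higher and 5 lower in SCC15, and 3 and 5 in SCC25, at equal totals. FASTK (0.72 ± 0.16, limma adjusted p = 0.00658) and the oligoribonuclease REXO2 (0.71 ± 0.12, limma adjusted p = 0.00187) had the largest rises of the list in SCC15. At equal totals the 2 changes were 0.22 and 0.21, and neither was called. In SCC25 the poly(A) polymerase MTPAP (0.68 ± 0.09) and PDE12, which removes poly(A) tails (0.68 ± 0.08), both rose (limma adjusted p = 2.80e-05 and 4.14e-06). Of 18 RNA modification genes, 4 rose and 7 fell in SCC15 and 3 rose and 12 fell in SCC25 (0 and 12, and 3 and 15, at equal totals). CDK5RAP1 rose in SCC15 (0.59 ± 0.08, limma adjusted p = 5.94e-04; 0.09 and not called at equal totals). METTL15 rose in SCC25 (0.75 ± 0.05, limma adjusted p = 1.63e-08).

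Granule and ribosome assembly genes, 7 in all, counted 1 fall and 0 rises in SCC15, and in SCC25 5 falls and 2 rises (4 and 0, and 5 and 1, at equal totals). The RNA helicase DDX28 averaged 114 ± 42.1 against 467 ± 11.8 in SCC15 and 23.9 ± 5.46 against 276 ± 21.9 in SCC25. Its log2 changes of -2.09 ± 0.23 and -3.49 ± 0.18 (limma adjusted p = 2.84e-04 and 1.81e-09) differed between the lines by -1.41 (limma adjusted p = 0.00187). TWNK, TRMT10C and DDX28 changed by more than any of the 10 members in either line.

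Reads of the RNAs on which these factors act moved apart by kind. Of the 13 mitochondrial messengers, 13 fell in SCC15, while in SCC25 11 fell, MT-ND4 rose (0.74) and MT-ND4L did not pass (-0.01), although it did at equal totals (-0.22, limma adjusted p = 0.00552). Changes ran from -4.05 (MT-ATP8) through a median of -2.26 (MT-ND2) to -0.58 (MT-ND4) in SCC15. They ran from -3.39 (MT-ATP8) through -1.74 (MT-ND5) to that rise in SCC25. Of all genes, 30.9% rose and 30.0% fell in SCC15, and 38.3% and 38.5% in SCC25. Both ribosomal RNAs rose in both lines, and these calls kept their direction at equal totals. Messengers took 0.307% to 0.393% of reads under squamocin and 1.41% to 1.45% in DMSO in SCC15, and 1.42% to 1.92% against 3.71% to 3.85% in SCC25. The 10 factors together took 0.0437% to 0.0443% against 0.0550% to 0.0560% in SCC15, and 0.0515% to 0.0523% against 0.0669% to 0.0683% in SCC25.

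Levels of different genes were set side by side as reads per kilobase of the canonical transcript, scaled to 1000000 reads (mean ± SD, n = 3). In SCC15 DMSO, SLIRP was highest at 153 ± 2.86, followed by ELAC2 (30.8 ± 0.716), POLRMT (20.4 ± 1.54) and LRPPRC (19.4 ± 0.322). TFAM (12.3 ± 0.337), TFB2M (10.8 ± 0.630) and SUPV3L1 (10.1 ± 0.313) came next. PNPT1 (8.0 ± 0.590), TEFM (7.48 ± 0.234) and FASTKD2 (3.73 ± 0.197) were lowest. Neighbours whose means lay within the sum of their SDs were POLRMT and LRPPRC, TFB2M and SUPV3L1, and PNPT1 and TEFM.

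In SCC25 DMSO the order began with SLIRP (94.0 ± 3.71) and LRPPRC (38.4 ± 0.876), then POLRMT (20.9 ± 0.652) and ELAC2 (20.7 ± 0.392), which lay within the sum of their SDs. TFAM (17.6 ± 0.211), TFB2M (13.8 ± 0.527), SUPV3L1 (11.7 ± 0.0355), PNPT1 (9.26 ± 0.603), TEFM (6.65 ± 0.223) and FASTKD2 (5.62 ± 0.0574) followed in turn. The order depends on the length used. With all annotated exons of a gene joined, the SCC15 DMSO level of SLIRP was 21.8 and that of LRPPRC 3.69. In SCC25 DMSO the joined length put SLIRP (13.4) below TFAM (16.8), POLRMT (15.6) and TFB2M (13.8), so its first rank was lost there. No test was made between the lines, whose tables were normalized separately.

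**Figure D2:**
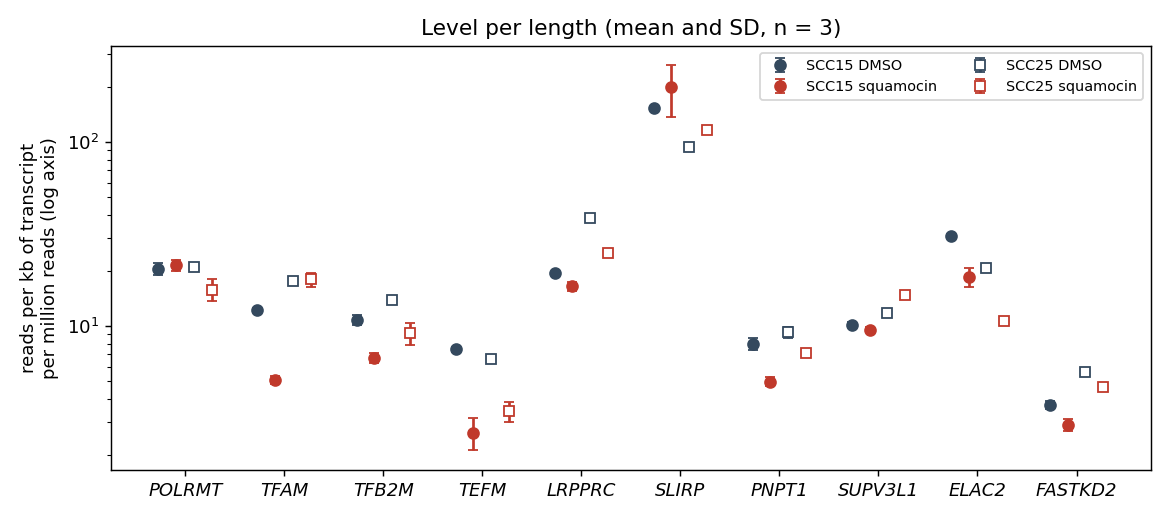
Reads per kilobase of canonical transcript, scaled to 1000000 reads (vertical, log axis) for each factor, as the mean with SD bars (n = 3), in SCC15 (filled circles) and SCC25 (open squares), DMSO in dark and squamocin in red. With this length SLIRP lies above the other 9 in every group, and FASTKD2 is lowest in DMSO in both lines. With all annotated exons joined, SLIRP (13.4) lies below TFAM (16.8) in SCC25 DMSO. These values are scaled to the reads of each library, so they follow the equal-totals scaling.

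For POLRMT, TFAM and LRPPRC, called in opposite directions in the 2 lines, genes with a like pattern were listed among 9688 protein-coding genes. Likeness was the root mean square difference over 12 libraries of log2 values, each taken from the DMSO mean of its line. Nearest to POLRMT were SH2D3A (0.0479), SH3GL1 (0.0822) and ALDH18A1 (0.0838). SH2D3A changed by 0.61 in SCC15 and by -0.17 in SCC25 (0.11 and -0.38 at equal totals). Nearest to TFAM were SYNCRIP (0.0552), ASB7 (0.0665) and SLC12A2 (0.0667), and SYNCRIP changed by -0.84 and 0.18 (-1.33 and -0.02). VAC14 (0.0472), ARIH2 (0.0531) and PAM (0.0568) came closest to LRPPRC, and VAC14 changed by 0.23 and -0.35 (-0.27 and -0.56). These lists describe the 12 libraries only.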

How the data were processed

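RNA of 12 libraries was sequenced after preparation with a NEBNext Ultra kit. Per the labels and the study's methods, the authors aligned reads to GRCh38 with HISAT2 2.0.5 and counted them per gene with featureCounts 1.5.0-p3. The deposited values are a normalized signal per gene, the read count divided by 1 size factor per library, although the SCC25 columns are named FPKM; both tables were normalized separately. Dividing by the step of 1 read gave whole reads for 100% of values (tolerance 0.01) in every library, between 16665563 and 22748845 reads in all. Deposited group means, fold changes and p-values of the authors' own comparison were not used.

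Genes with a mean of at least 10 normalized counts over the 6 libraries of a line were tested with limma 3.58.1 (R 4.3.3) on log2(normalized count + 1), two-sided, with mean-variance trend and Benjamini-Hochberg adjustment over all genes tested. Fold changes are on that scale, which understates changes of low genes. A threshold of 0.05 on the adjusted p was used. The difference between lines was a contrast in 1 fit of all 12 libraries. Alternatives were pseudocounts of 0.1 and 10, no filter, at least 10 in every library, TMM factors, equal library totals, count tests on the recovered reads (DESeq2 1.42.0, edgeR 4.0.16), a replicate block, each library left out, and protein-coding genes alone. The scripts were tested on simulated data.

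The 10 members, the other lists and the tests were chosen with earlier results of these data known. Named beyond the members are, per line, the 3 largest rises and falls among the 49 other factors (called, mean of at least 100), the lowest, median and highest of the mitochondrial messengers and upstream regulators, and 3 genes with the most like pattern for each of POLRMT, TFAM and LRPPRC. ADAP2, SNW1, POLRMTP1 and MT-ND4L were named after their values were seen. The canonical transcript length (GENCODE 44) was chosen over the joined exons after both were seen. Gene coordinates are those of the deposited tables, and promoter sequences are from RefSeq (GRCh38.p14), where all 10 members matched, SLIRP with a second window. Counting depth limits each value, and no interval here covers more than the spread between libraries.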

Additional observations from a re-analysis of the deposited data

Results flagged for a closer look

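In 4 members the response to squamocin differed between the cell lines by a test of the difference itself (limma, SCC25 minus SCC15, on the log2 scale), as did 52.2% of all genes tested in both lines. TFAM differed by 1.00, with changes of -0.77 in SCC15 and 0.23 in SCC25. At equal totals these were -1.27 and 0.02, the second not called (adjusted p = 0.790). POLRMT differed by -0.77 and LRPPRC by -0.68, in the reverse pattern with the study's size factors, where equal totals turn the SCC15 change of LRPPRC negative. ELAC2 differed by -0.51, with lower values in both lines. Leaving out 1 library at a time gave 0.93 to 1.07 for TFAM, -0.84 to -0.66 for POLRMT, -0.71 to -0.64 for LRPPRC and -0.54 to -0.48 for ELAC2. At equal library totals the ELAC2 difference was no longer called.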

How the results depend on the processing

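Equal library totals moved most values: in SCC15 0 members rose and 7 fell, and 4 differences between lines were called positive. Of the other factors 0 rose and 31 fell in SCC15, and 18 differences were called positive and 6 negative. All genes counted 2357 higher and 8033 lower against 4921 and 4773 in SCC15, 5032 and 7839 against 6335 and 6367 in SCC25, and 5446 and 2400 against 3761 and 3779 for the difference. Signs turned for SUPV3L1 (-0.085), LRPPRC (-0.23) and FASTKD2 (-0.36) in SCC15 and for the differences of TFB2M (0.076) and FASTKD2 (0.093). The median shift is built into that scaling; for the rest the cause was not tested. Leaving out 1 library at a time gave 2 to 4 rises and 2 to 5 falls among members in SCC15, and 3 and 4 to 5 in SCC25. Other factors ranged over 4 to 15 rises and 13 to 25 falls in SCC15, 11 to 12 and 27 to 28 in SCC25, and 6 to 16 and 11 to 18 for the difference. Without SCC15 squamocin replicate 3, 5 members fell and 15 other factors rose in SCC15, and 16 differences of other factors were called positive. Without SCC15 DMSO replicate 3, 13 other factors fell, and without DMSO replicates 1, 2 and 3 in turn 4, 5 and 4 rose and 2 members rose. All genes ranged over 3930 to 6086 rises and 3612 to 6022 falls in SCC15, and 6059 to 6443 and 5779 to 6595 in SCC25. For the difference they ranged over 3401 to 4842 and 3375 to 4705. The difference of SLIRP ranged from -0.497 to 0.013, turning positive without SCC15 squamocin replicate 3. That of PNPT1 ranged from -0.064 to 0.154, at -0.064, -0.023 and -0.039 without SCC15 squamocin 1, squamocin 2 or DMSO 2 and -0.015 and -0.033 without SCC25 squamocin 2 or DMSO 3. Without a filter 4 members fell in SCC25, as did 8302 of all 31055 genes. Over all alternatives, 495 of the members' values kept direction and side of the threshold, 26 lost the call, 8 gained one and 11 changed sign.

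Same-numbered libraries did not deviate together over the genes tested (6 correlations from -0.0511 to 0.00780). With 3 libraries per group this cannot exclude a pairing by number, or one limited to some genes. With the replicate block 3 members rose and 2 fell in SCC15, LRPPRC and ELAC2 losing the call (adjusted p = 0.0751 and 0.0906), and 5 other factors rose there. In SCC25 the block gave 3 and 6, and for the difference 1 and 3. Of all genes, 4665 rose and 4451 fell of 15902 in SCC15 with the block, and 6294 and 6317 of 16539 in SCC25. For the difference 3525 were called positive and 3564 negative of 14454.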

Other observations

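Regulators of nuclear genes for mitochondrial proteins were measured beside the factors. Of 8 tested in SCC15, 3 rose and 2 fell (median -0.15), and of 7 tested in SCC25, 3 rose and 3 fell (median 0.20). At equal library totals 0 rose and 5 fell in SCC15, and 2 rose and 3 fell in SCC25. Over all genes, 30.9% rose and 30.0% fell in SCC15 and 38.3% and 38.5% in SCC25, or 14.8% and 50.5%, and 30.4% and 47.4%, at equal totals. The lowest in both lines was the coactivator PPARGC1B, at -1.53 ± 0.29 (SE, n = 3 per group, limma adjusted p = 0.00315) in SCC15 and -0.79 ± 0.09 in SCC25. GABPB1, the beta subunit of GABP, was highest in both, at 0.68 ± 0.13 (0.18 at equal library totals) and 1.00 ± 0.08 (0.79 at equal totals). NRF1 lay at the median of SCC25, with 0.20 ± 0.10 (limma adjusted p = 0.0984), and was not called in SCC15 either (-0.20 ± 0.12, limma adjusted p = 0.189). At equal totals its SCC15 value was -0.69 and called lower (limma adjusted p = 0.00849), and its SCC25 value was -0.01 (limma adjusted p = 0.920).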
